A study of Mus musculus with 2 samples.

Results

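The 4 genes of the POU3F family of transcription factors (Pou3f1, Pou3f2, Pou3f3 and Pou3f4) and 4 noncoding RNAs listed near 2 of them (Pantr1, Gm29260, Gm28175 and Gm44593) were followed across the cell types of the embryonic mouse neocortex. They were taken by symbol from the gene table, 8 of 33938 listed genes, and each symbol stood on 1 line of it. Nuclei of dissected embryonic neocortex were sequenced in 1 library of genotype MEN1-NCKO and 1 of genotype MEN1-F/F. The labels give only the genotype names. The sources used here do not give the driver of the knockout, the deleted part of Men1, the age of the embryos or the number pooled. The study's title ties menin, the protein made from Men1, to late-born neurons. The 8 genes were selected on their UMI levels in NCKO against F/F in these same libraries, where several of them had been lower, so every ratio between the libraries is a description. With 1 library per genotype there is no spread between replicates and no test, and the genotype cannot be told apart from any other difference between the 2 libraries. Intervals cover counting error only.

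POU3F proteins bind DNA through a POU-specific domain and a homeodomain, and their genes have a single coding exon. POU3F2 (BRN2) and POU3F3 (BRN1) act together in the mouse cortex, where loss of both impairs the production, migration and layering of upper-layer neurons. POU3F1 (OCT6) is best known from myelinating Schwann cells and also marks layer 5 and upper-layer neurons. POU3F4 (BRN4) acts in the ear and in the striatum. Pantr1 takes its name from its place beside Pou3f3. The annotation used gives no function for Gm29260, Gm28175 and Gm44593.

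On GRCm38 with GENCODE vM21, Pou3f3 (ENSMUSG00000045515) lies at chr1:42695768-42703176 on the plus strand. Pantr1 (ENSMUSG00000060424) runs the other way at chr1:42590782-42694842, so that their starts are 926 bp apart. Gm28175 (ENSMUSG00000101299) at chr1:42261855-42304412 and Gm29260 (ENSMUSG00000100832) at chr1:41781808-41939560, both on the plus strand, lie 391356 bp and 756208 bp upstream of Pou3f3. Pou3f3 is the nearest coding gene to each of the 3. Pou3f4 (ENSMUSG00000056854) at chrX:110814280-110817207 and Gm44593 (ENSMUSG00000109088) at chrX:110634586-110812324 form a second head-to-head pair, 1956 bp apart. Pou3f1 (ENSMUSG00000090125) at chr4:124656807-124660655 and Pou3f2 (ENSMUSG00000095139) at chr4:22482780-22488366 share only a chromosome. Gm2164 overlaps Pou3f1 on the other strand, and Gm20646 (AC122898.1 in the annotation) overlaps Pou3f3 on its own strand. Each of these genes was counted on its own line. The sources used here do not say whether counting used strand, so how reads in the overlaps were assigned is not known.

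The sequences just upstream of the chromosome 1 genes and of Pou3f2 are shown because their genes were lower in NCKO in upper-layer-like nuclei. Each is the 250 bases before a RefSeq start on GRCm38.p6, written 5′ to 3′ on the gene's strand, and capitals mark CCAAT on either strand (ATTGG on the other).
Pou3f3, chr1:42695518-42695767, plus strand: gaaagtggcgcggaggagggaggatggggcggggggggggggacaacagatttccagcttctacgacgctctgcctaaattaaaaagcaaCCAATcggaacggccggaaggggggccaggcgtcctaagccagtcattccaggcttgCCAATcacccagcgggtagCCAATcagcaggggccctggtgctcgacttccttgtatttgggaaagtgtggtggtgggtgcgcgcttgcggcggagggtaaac
Pou3f2, chr4:22488367-22488616, minus strand: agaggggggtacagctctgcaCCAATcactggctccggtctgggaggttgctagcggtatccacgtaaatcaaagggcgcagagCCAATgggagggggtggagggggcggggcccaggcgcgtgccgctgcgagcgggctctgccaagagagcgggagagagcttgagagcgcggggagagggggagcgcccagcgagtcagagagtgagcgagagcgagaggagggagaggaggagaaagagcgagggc
Gm28175, chr1:42257602-42257851, plus strand: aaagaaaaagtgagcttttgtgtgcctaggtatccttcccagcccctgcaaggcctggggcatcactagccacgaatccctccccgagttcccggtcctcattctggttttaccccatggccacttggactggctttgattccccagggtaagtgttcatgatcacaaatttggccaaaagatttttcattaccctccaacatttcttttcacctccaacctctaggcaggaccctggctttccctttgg
Gm29260, chr1:41742772-41743021, plus strand: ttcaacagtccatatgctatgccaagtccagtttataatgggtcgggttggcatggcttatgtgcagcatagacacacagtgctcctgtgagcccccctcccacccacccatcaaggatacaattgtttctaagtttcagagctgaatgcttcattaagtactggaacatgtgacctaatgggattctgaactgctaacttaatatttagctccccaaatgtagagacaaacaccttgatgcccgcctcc
The Pou3f3 window, which fills part of the gap to Pantr1, held 3 CCAAT boxes, the known site of the NF-Y complex. Pou3f2 held 2, and the windows of Gm28175 and Gm29260 held 0. The window of Pou3f4, a gene whose interval over all nuclei included 1, also held 3 (58% GC, 13 CG dinucleotides), and the window before a further Gm29260 start, at position 41906642, held 1. Of 32851 windows of the same length before RefSeq starts, 33.8% held CCAAT and 2.79% held it at least 3 times. The windows of Pou3f3 and Pou3f2 were GC-rich (60.8% and 66.8%, with 15 and 18 CG dinucleotides), while those of Gm28175 and Gm29260 had 50.4% and 46% GC and 3 and 2 CG dinucleotides. The median window had 52.4% GC and 6 CG dinucleotides. The octamer ATGCAAAT, a classical POU site, was in none of the 4 windows on either strand, and in 1.6% of all windows. RefSeq starts Gm28175 and Gm29260 upstream of the GENCODE starts given above, and for Gm29260 it lists other starts as well.

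After filtering, 9807 NCKO and 6130 F/F nuclei remained, with 41410962 and 26822195 UMIs and medians of 3579 and 3665 UMIs per nucleus. The libraries shared 15 barcode strings. Nuclei were clustered without the 8 genes, and clusters were given a class name only as "like" their markers. Comparisons cover the 12 classes that held 50 nuclei or more on both sides. Men1 itself was at 13.6 CPM (562 UMIs) in NCKO and 10.3 CPM (277 UMIs) in F/F, where CPM is a gene's UMIs scaled to all UMIs of the same library and class. The level of Men1 thus did not bear out the genotype label, and 3′ counts say nothing of a deletion elsewhere in the gene. The labels' protocol names male mice, whereas Xist had a UMI in 95.8% of NCKO and 99.1% of F/F nuclei, and 4 Y-linked genes together had 20 and 19 UMIs.

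Across the classes, Pou3f2 and Pou3f3 were highest in dividing and newly born cells and low in most mature neurons. Pou3f2 was at 318, 301 and 250 CPM in intermediate progenitor-like, migrating excitatory neuron-like and radial glia-like nuclei of NCKO, and at 238, 404 and 224 CPM in those of F/F. Its lowest levels were in MGE-derived interneuron-like nuclei, with 20.4 CPM in NCKO and 34.0 CPM in F/F. Pou3f3 was between 138 and 174 CPM in NCKO in radial glia-like, intermediate progenitor-like, migrating, ganglionic eminence progenitor-like and astrocyte-like nuclei. The same 5 classes led in F/F, between 128 and 233 CPM, and neighbours in this order had overlapping intervals in both libraries. Upper-layer neuron-like nuclei held the last place for Pou3f3 in NCKO (33.6 CPM, interval 30 to 37.5) and the 8th place in F/F (74.8 CPM, 68.7 to 81.4).

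Pou3f1 followed another order. It was highest in migrating excitatory neuron-like nuclei (109 CPM in NCKO, 104 CPM in F/F), followed by layer 5-like (78.3 and 87.2 CPM), intermediate progenitor-like (77 and 86.9 CPM) and upper-layer-like nuclei (54.4 and 75.6 CPM). Layer 6-like nuclei were lowest in both libraries, at 12.5 CPM in NCKO and 5.89 CPM in F/F. The order of the first 5 classes was the same in both libraries, with overlapping intervals between neighbours. Pou3f4 was rare, with 186 UMIs in NCKO and 130 in F/F over all kept nuclei. Its levels were highest in ganglionic eminence progenitor-like nuclei of NCKO (34.5 CPM, 20.7 to 53.8) and radial glia-like nuclei of F/F (22.9 CPM, 12.5 to 38.4). In upper-layer-like nuclei it was at 1.04 and 1.92 CPM, from 10 and 14 UMIs.

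Of the noncoding RNAs, Gm29260 had the steepest profile. It was at 2426 CPM in NCKO and 3598 CPM in F/F in radial glia-like nuclei, and at 3.85 and 148 CPM in upper-layer-like nuclei. In NCKO the first 5 classes (radial glia, intermediate progenitor, ganglionic eminence progenitor, migrating excitatory neuron and astrocyte-like) were separated by intervals that did not overlap. Pantr1 peaked in migrating excitatory neuron-like nuclei, at 613 CPM in NCKO and 1064 CPM in F/F, and was lowest in layer 6-like nuclei, at 46.3 and 80.3 CPM. Gm28175 also peaked there, at 178 and 306 CPM, and was lowest in striatal or LGE-derived neuron-like nuclei, at 8.67 and 42.5 CPM. Gm44593 was highest in ganglionic eminence progenitor-like nuclei (149 CPM in NCKO, 223 CPM in F/F) and in striatal or LGE-derived neuron-like nuclei (136 and 210 CPM), where its neighbour Pou3f4 was at 13.9 and 8.7 CPM.

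**Figure D1:**
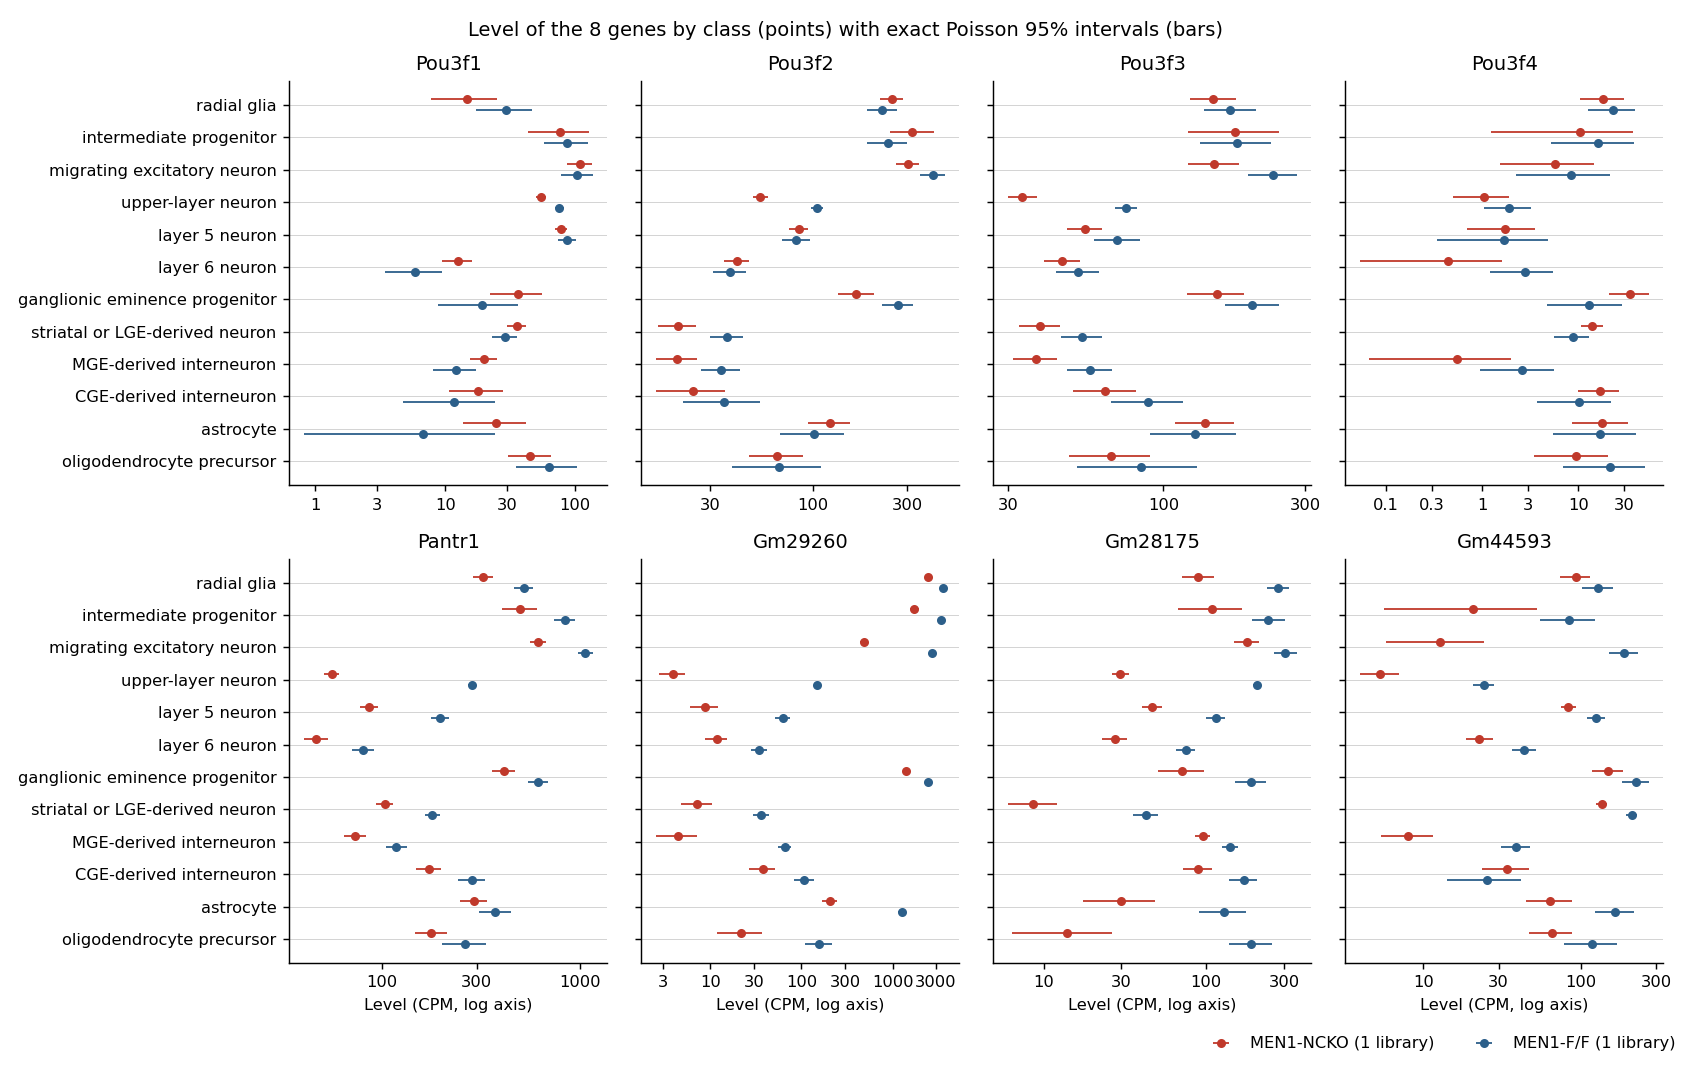
Level of each of the 8 genes (CPM, log axis) in 12 marker-defined classes, MEN1-NCKO in red above MEN1-F/F in blue, 1 library each; bars are exact Poisson 95% intervals. In upper-layer nuclei Gm29260 stands at 3.85 CPM in NCKO and 148 CPM in F/F, while Pou3f2 in radial glia stands at 250 and 224 CPM.

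Over all kept nuclei, 3 of the 4 noncoding RNAs were at least 2-fold lower in NCKO, a size reached by 0.122% of 17178 genes. Pantr1 had 4116 UMIs (99.4 CPM) in NCKO and 7061 UMIs (263 CPM) in F/F, a ratio of 0.378 (0.363 to 0.392). Gm29260 had 4632 UMIs (112 CPM) and 9698 UMIs (362 CPM), a ratio of 0.309 (0.299 to 0.320). Gm28175 had 1776 UMIs (42.9 CPM) and 4083 UMIs (152 CPM), a ratio of 0.282 (0.266 to 0.298). All 3 lie in the Pou3f3 region. Gm44593 had 1542 UMIs (37.2 CPM) and 1919 UMIs (71.5 CPM), a ratio of 0.520 (0.486 to 0.557).

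The POU3F genes differed less over all nuclei. Pou3f2 was at 57.1 CPM (2366 UMIs) in NCKO and 91.5 CPM (2454 UMIs) in F/F, a ratio of 0.624 (0.590 to 0.661). Pou3f3 was at 47.6 CPM (1971 UMIs) and 78.0 CPM (2093 UMIs), a ratio of 0.610 (0.573 to 0.649). Both intervals lay below 1, and neither gene passed 2-fold. Pou3f1 was at 38.3 and 44.5 CPM (ratio 0.860, 0.797 to 0.928), and Pou3f4 at 4.49 and 4.85 CPM with an interval that included 1 (0.737 to 1.17).

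Upper-layer neuron-like nuclei, the late-born excitatory neurons, numbered 1987 in NCKO and 1483 in F/F. Among the 12 named classes, they gave Gm29260, Pantr1, Pou3f2 and Pou3f3 their lowest log2 ratios. Gm29260 had 37 UMIs (3.85 CPM) in the NCKO library and 1081 UMIs (148 CPM) in the F/F library, a ratio of 0.026 (0.0182 to 0.0361) and a log2 ratio of -4.11. Log2 ratios here are of CPM + 5, which draws low genes towards 0. With CPM + 1 and CPM + 20 the log2 ratio was -4.94 and -2.82. None of the other genes tested in the class (12653 in all, each of 50 UMIs or more) had a lower log2 ratio. Gm28175 followed with 285 UMIs (29.6 CPM) in NCKO and 1489 UMIs (204 CPM) in F/F, a ratio of 0.146 (0.128 to 0.165). Pantr1 had 536 UMIs (55.7 CPM) and 2084 UMIs (285 CPM), a ratio of 0.196 (0.177 to 0.215). These were the 3 Pou3f3-region RNAs, and 1, 2 and 4 of the 12653 genes had a log2 ratio as low as theirs or lower.

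Pou3f3 itself was at 33.6 CPM (323 UMIs) in NCKO and 74.8 CPM (547 UMIs) in F/F of this class, a ratio of 0.449 (0.390 to 0.516). Pou3f2 was at 53.8 CPM (517 UMIs) and 105 CPM (766 UMIs), a ratio of 0.513 (0.458 to 0.574). Pou3f1 was at 54.4 CPM (523 UMIs) and 75.6 CPM (553 UMIs), a ratio of 0.719 (0.637 to 0.812). The intervals of these 3 genes lay below 1 and above those of Gm28175, Gm29260 and Pantr1. Gm44593 was low in both libraries, with 51 UMIs (5.30 CPM) in NCKO and 176 UMIs (24.1 CPM) in F/F, a ratio of 0.220 (0.158 to 0.302). Thus 5 of the 7 members with at least 50 UMIs were at least 2-fold lower on the log2 scale, against 0.490% of all genes tested, and 0 were 2-fold higher, against 0.198%. With CPM + 20, Pou3f3 (-0.82) and Gm44593 (-0.80) were under 2-fold. Pou3f3 was also under 2-fold (-0.96) with clusters weighted as in the F/F library. The members were picked for this contrast, and nothing is read from these shares. The median log2 ratio of all genes was 0.01.

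**Figure D2:**
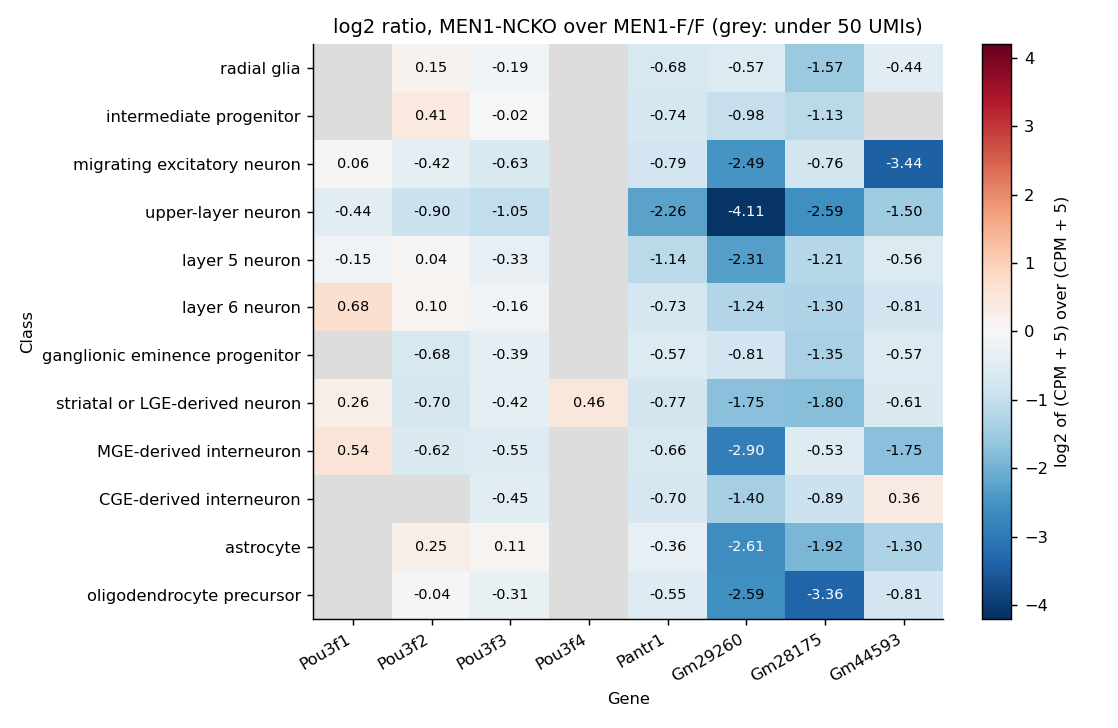
log2 ratio of (CPM + 5), MEN1-NCKO over MEN1-F/F, for the 8 genes (columns) in 12 classes (rows), blue for lower in NCKO and red for higher; grey cells have under 50 UMIs over both libraries. Gm29260, Gm28175 and Pantr1 are below 0 in every row, from -4.11 to -0.36, and Pou3f1 is at 0.68 in layer 6 neurons.

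The upper-layer class joined 4 clusters, and the noncoding RNAs were lower in NCKO in each. Gm29260 had a ratio of 0.0736 (0.0456 to 0.114) in cluster 0, led by Nwd2 and Inhba, and 0.0254 (0.00919 to 0.0565) in cluster 5, led by Ntf3 and Met. In cluster 6, led by Cntnap5c and Chrm2, it was 0.0137 (0.00498 to 0.0301), and in cluster 13, led by Tafa2, Bcl6 and Cux2, it was 0.0116 (0.0014 to 0.0422). Pantr1 ratios ranged from 0.193 to 0.303 over the 4 clusters, and those of Gm28175 from 0.103 to 0.238. Pou3f3 ratios ran from 0.388 to 0.555 with every interval below 1. Pou3f2 differed among the clusters, with 0.449 (0.320 to 0.616) in cluster 13 and 0.874 (0.686 to 1.11) in cluster 5. Cluster 13, where both genes were highest in F/F (219 CPM for Pou3f2 and 134 CPM for Pou3f3), held 137 NCKO and 283 F/F nuclei.

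At the main settings, the Gm29260 ratio was smaller at each step from radial glia-like through intermediate progenitor-like and migrating to upper-layer-like nuclei. In radial glia-like nuclei it had 2144 UMIs (2426 CPM) in NCKO and 2200 UMIs (3598 CPM) in F/F, a ratio of 0.674 (0.635 to 0.716). Intermediate progenitor-like nuclei had 338 UMIs (1735 CPM) and 1063 UMIs (3422 CPM), a ratio of 0.507 (0.447 to 0.573). Migrating excitatory neuron-like nuclei had 343 UMIs (485 CPM) and 1317 UMIs (2742 CPM), a ratio of 0.177 (0.157 to 0.199). The intervals of these 3 classes and of the upper-layer class did not overlap. The deep-layer neurons did not continue the order, with 0.138 (0.0917 to 0.203) in layer 5-like nuclei, which overlapped the migrating class, and 0.341 (0.239 to 0.480) in layer 6-like nuclei, which lay above it. In F/F the migrating class was still at 2742 CPM, while NCKO was already at 485 CPM there. The intermediate progenitor-like class is small, with 67 NCKO and 119 F/F nuclei. Under other processing settings its Gm29260 log2 ratio ranged from -1.78 to -0.56, which overlapped the radial glia-like range (-0.89 to -0.50). The first step thus depends on the settings. The ranges of migrating (-2.54 to -2.06) and upper-layer-like nuclei (-4.94 to -2.82) lay below both and did not overlap.

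Pantr1 did not show such steps before the upper layers. Its ratio was 0.622 (0.528 to 0.732) in radial glia-like, 0.595 (0.466 to 0.754) in intermediate progenitor-like and 0.576 (0.506 to 0.656) in migrating nuclei, with overlapping intervals, against 0.196 in upper-layer-like nuclei. Gm28175 had ratios of 0.325 (0.246 to 0.427), 0.446 (0.261 to 0.732) and 0.582 (0.455 to 0.743) over the same classes, and 0.146 in upper-layer-like nuclei. For Pou3f3 the intervals included 1 in radial glia-like (0.873, 0.669 to 1.14) and intermediate progenitor-like nuclei (0.986, 0.623 to 1.54), and lay below 1 in migrating nuclei (0.636, 0.483 to 0.838). Pou3f2 gave 1.12 (0.898 to 1.39), 1.34 (0.938 to 1.90) and 0.745 (0.611 to 0.910). The noncoding RNAs of the Pou3f3 region were thus lower in NCKO in the 2 progenitor classes, where the intervals of Pou3f2 and Pou3f3 included 1. In both classes the Pou3f2 interval lay above those of these RNAs. The Pou3f3 interval overlapped that of Pantr1 in both, of Gm29260 in radial glia-like and of Gm28175 in intermediate progenitor-like nuclei. For Pou3f3, with few UMIs, these values thus do not show a smaller difference than for those RNAs.

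**Figure D3:**
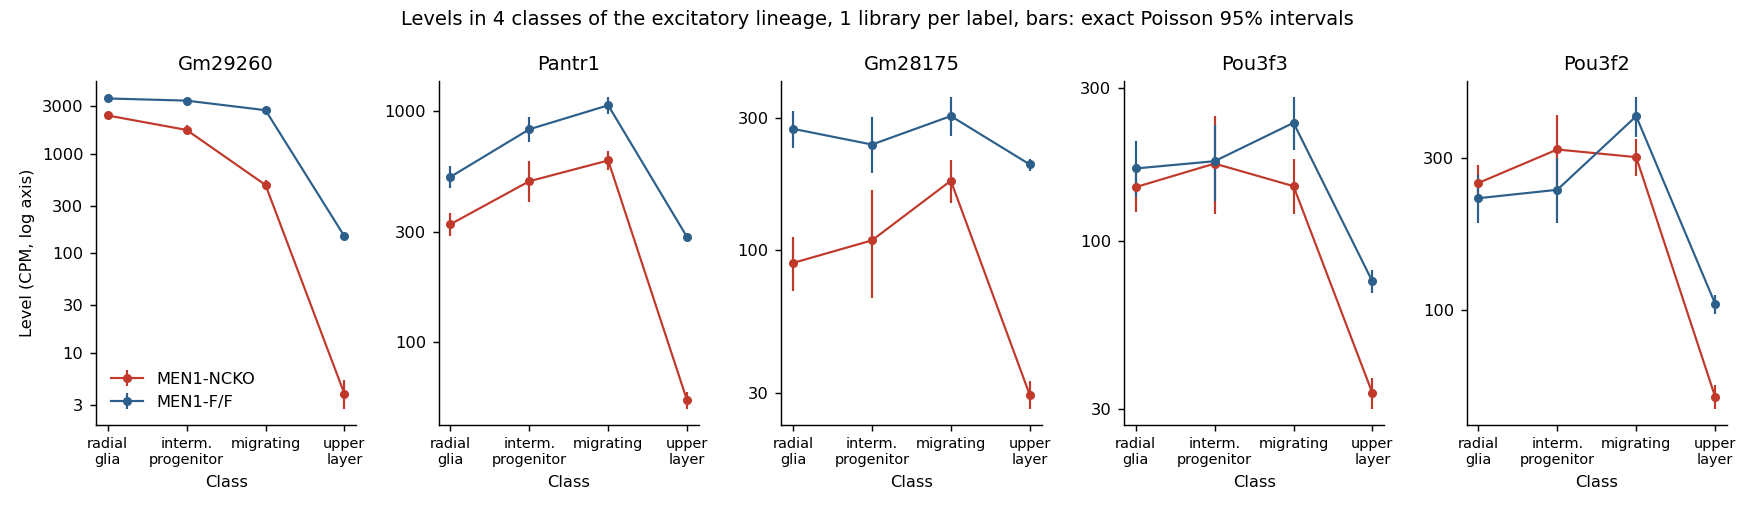
Levels (CPM, log axis) of 5 genes in radial glia, intermediate progenitor, migrating and upper-layer classes, red MEN1-NCKO and blue MEN1-F/F, 1 library each; bars are exact Poisson 95% intervals and lines only join the classes. For Gm29260 the curves part from 2426 and 3598 CPM in radial glia to 3.85 and 148 CPM in the upper layers, while the bars for Pou3f3 and Pou3f2 overlap in the first 2 classes.

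Within the radial glia-like class 1 cluster went the other way. In cluster 34, led by Lhcgr, Slc39a12, Enkur and Clu, Gm29260 had 212 UMIs (1095 CPM) in 60 NCKO nuclei and 43 UMIs (457 CPM) in 32 F/F nuclei, a ratio of 2.40 (1.72 to 3.41). The other radial glia-like clusters gave 0.657 (0.605 to 0.714) in cluster 17, led by Hgf and Tnc, 0.671 (0.585 to 0.771) in cluster 33, led by Veph1 and Gli3, and 0.712 (0.622 to 0.814) in cluster 36, led by the division genes Kif23 and Top2a. Cluster 34 also had the lowest Gm29260 level of the 4 in both libraries. Pantr1 in cluster 34 was at 217 and 297 CPM, with an interval that included 1 (0.441 to 1.22).

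Outside the excitatory lineage the same RNAs were lower as well. Gm29260, Gm28175 and Pantr1 had a ratio with an interval below 1 in 12 of 12 classes. Over all genes, 10.6% of the 82280 pairs of a gene and a class had an interval below 1 and 11.4% one above 1, so an interval that leaves out 1 is common in these data. For Pantr1 in astrocyte-like nuclei (0.779, 0.608 to 1) the bound lay just under 1. On the log2 scale Gm29260 was at least 2-fold lower in 9 of 12 classes, Gm28175 in 9 and Pantr1 in 2. Gm44593 was so in 4 of 11 classes and Pou3f3 in 1 of 12. For Pou3f2 it was 0 of 11, for Pou3f1 0 of 6 and for Pou3f4 0 of 1. Together these are 25 of 77 pairs of a gene and a class with at least 50 UMIs, where 0.625% of the pairs over all genes were as low. None of the 77 was 2-fold higher, a size reached by 0.710% of all pairs. In MGE-derived interneuron-like nuclei, GABAergic cells born in the medial ganglionic eminence, Gm29260 had 16 UMIs (4.41 CPM) in NCKO and 152 UMIs (65.5 CPM) in F/F, a ratio of 0.0674 (0.0376 to 0.113). Gm28175 had its lowest ratio in oligodendrocyte precursor-like nuclei, with 9 UMIs (14.0 CPM) and 45 UMIs (189 CPM), a ratio of 0.0738 (0.0317 to 0.153).

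Pou3f2 and Pou3f3 were lower in NCKO in part of the other classes only. Their intervals lay below 1 in 5 of 11 and 5 of 12 classes, beside the 10.6% of all pairs. Pou3f2 had 0.600 (0.431 to 0.834) in MGE-derived interneuron-like, 0.563 (0.417 to 0.758) in striatal or LGE-derived neuron-like and 0.616 (0.465 to 0.814) in ganglionic eminence progenitor-like nuclei, the last a single cluster led by division genes such as Top2a. Pou3f3 had 0.655 (0.511 to 0.839) in MGE-derived interneuron-like, 0.721 (0.573 to 0.908) in striatal or LGE-derived neuron-like and 0.779 (0.623 to 0.977) in layer 5-like nuclei. In layer 6-like nuclei neither gene stood apart, with 1.09 (0.852 to 1.39) for Pou3f2 and 0.884 (0.713 to 1.10) for Pou3f3. At an equal 1000 UMIs per nucleus the log2 ratio of Pou3f3 was 0.08 in layer 5-like and 0.08 in striatal or LGE-derived nuclei.

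Pou3f1 was the member with differences in both directions. Against its ratio of 0.719 in upper-layer-like nuclei stood 2.12 (1.21 to 3.89) in layer 6-like nuclei, from 56 UMIs in NCKO and 17 in F/F. MGE-derived interneuron-like nuclei had 72 and 28 UMIs, a ratio of 1.65 (1.05 to 2.65). Without doublet removal the log2 ratio of the MGE class was -0.07 in place of 0.54. Of all genes tested, 14.8% had an interval above 1 in layer 6-like and 10.5% in MGE-derived interneuron-like nuclei. Pou3f1 was at 12.5 and 5.89 CPM in the first class and 19.8 and 12.1 CPM in the second. Microglia-like nuclei, which should lack it, had 27.1 CPM (5.58 to 79.1) in NCKO and 34.2 CPM (4.14 to 124) in F/F, from 3 and 2 UMIs. The part of background RNA in these levels was not tested. In layer 5-like nuclei, where Pou3f1 is a known marker, it was at 78.3 CPM (316 UMIs) and 87.2 CPM (157 UMIs), with an interval that included 1 (0.739 to 1.09). Its antisense neighbour Gm2164 had a ratio of 0.641 (0.615 to 0.668) over all nuclei and 0.520 (0.488 to 0.554) in upper-layer-like nuclei, from 1615 UMIs in NCKO and 2360 in F/F. In upper-layer-like nuclei its interval lay below that of Pou3f1.

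On the X chromosome, Gm44593 was lower in NCKO in most classes, while Pou3f4 was too rare to compare in all but 1. Migrating excitatory neuron-like nuclei had 9 UMIs of Gm44593 (12.7 CPM) in NCKO and 90 UMIs (187 CPM) in F/F, a ratio of 0.0679 (0.0301 to 0.135). Of the 4239 genes tested in that class none had a lower log2 ratio (-3.44), and 1.23% were at least 2-fold lower. The log2 ratio was -2.26 when the 8 genes were among those clustered on and -2.37 at a finer clustering, and the cause was not tested. In striatal or LGE-derived neuron-like nuclei it had 547 UMIs (136 CPM) and 603 UMIs (210 CPM), a ratio of 0.646 (0.574 to 0.726). Pou3f4 in that class, its one class with 50 UMIs, had 56 UMIs (13.9 CPM) and 25 UMIs (8.70 CPM), and its interval included 1 (1.59, 0.979 to 2.67). The interval of Gm44593 lay below 1 in 9 of 11 classes, beside the 10.6% of all pairs of a gene and a class. One of the 9 was oligodendrocyte precursor-like nuclei, where the log2 ratio of -0.81 turned to 0.68 at 1000 UMIs per nucleus. The exceptions were CGE-derived interneuron-like nuclei, at 33.7 and 25.2 CPM (1.34, 0.715 to 2.63), and radial glia-like nuclei, at 92.8 and 128 CPM (0.727, 0.527 to 1).

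Shares of nuclei with a UMI were also lower in NCKO at equal depth. With each nucleus thinned to 1000 UMIs, Gm29260 was found in 0.453% of 1985 NCKO upper-layer-like nuclei (exact Clopper-Pearson interval 0.208 to 0.859%) and in 12.8% of 1483 F/F nuclei (11.2 to 14.6%). Unthinned, the shares were 1.71% and 31.8%. Microglia-like nuclei, which should lack these RNAs, had Gm29260 in 1 of 43 NCKO (2.33%) and 2 of 21 F/F (9.52%) thinned nuclei, and 1 F/F nucleus of this class held 16 of the 22 UMIs found there before thinning. The NCKO upper-layer share was no higher than the microglia-like share and is read as background. The F/F upper-layer share was above the microglia-like one, but within its wide interval (1.17 to 30.4%). By level, Gm29260 was at 9.03 CPM (0.229 to 50.3) in NCKO and 376 CPM (236 to 570) in F/F microglia-like nuclei, beside 3.85 and 148 CPM in upper-layer-like ones. The F/F microglia-like level lay above the upper-layer one, and the NCKO one rests on 1 UMI. The part of free RNA in the upper-layer ratio was not tested. Median depths before thinning were 2130.5 and 2620 UMIs in microglia-like and 4161 and 4329 UMIs in upper-layer-like nuclei. The thinning left out 2 NCKO nuclei and 0 F/F nuclei of the upper-layer class.

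The other shares in upper-layer-like nuclei, thinned in the same way, were 5.39% in NCKO and 24.0% in F/F for Pantr1. Gm28175 was found in 2.87% and 17.8% of nuclei. For Pou3f3 the shares were 2.97% and 7.69%, and for Pou3f2 5.84% and 10.2%. For these 4 genes the intervals of the libraries did not overlap. In microglia-like nuclei of NCKO, Pou3f2 was found in 2, Pou3f3 and Gm28175 in 1 and Pantr1 in 0 of 43 thinned nuclei. In those of F/F, Pou3f3 and Gm28175 were found in 2 and Pou3f2 and Pantr1 in 1 of 21. The F/F share of Pou3f3 in upper-layer-like nuclei (7.69%) was thus below that in microglia-like nuclei (9.52%), so no expression is read from this share. Microglia-like levels of Pou3f3 were 36.1 CPM (9.84 to 92.4) in NCKO and 51.3 CPM (10.6 to 150) in F/F, from 4 and 3 UMIs. The upper-layer levels, 33.6 and 74.8 CPM, lay within these wide intervals. In F/F subplate neuron-like and Cajal-Retzius cell-like nuclei, Pou3f3 was at 8.64 CPM (1.78 to 25.3) and 7.26 CPM (0.88 to 26.2). Both intervals lay below that of F/F upper-layer-like nuclei (68.7 to 81.4). In F/F mural or meningeal cell-like nuclei it was at 41.6 CPM, with an overlapping interval that reached 97.1. The part of free RNA in these levels was not tested. Pantr1 in microglia-like nuclei was at 36.1 CPM (9.84 to 92.4) and 85.5 CPM (27.8 to 200), so that its F/F upper-layer level of 285 CPM lay above the interval and its NCKO level of 55.7 CPM within it. In migrating nuclei Gm29260 was found in 26.0% (21.3 to 31.2%) of NCKO and 82.4% (76.1 to 87.5%) of F/F nuclei, and in radial glia-like nuclei in 72.3% (67.1 to 77.0%) and 83.3% (77.6 to 88.1%). Among unthinned migrating nuclei with a UMI, the mean was 2.77 UMIs in NCKO and 7.70 UMIs in F/F. Both the share of positive migrating nuclei and the UMIs in each were thus lower in NCKO.

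Around Pou3f3 the 2 other noncoding RNAs measured in upper-layer-like nuclei were lower too, and the other coding genes stayed within 2-fold, as nearly all genes did. In upper-layer-like nuclei 12 other coding genes within 1.5 Mb of Pou3f3 had at least 50 UMIs, 0 of them past 2-fold in either direction, with a median log2 ratio of 0.00 and a range from -0.15 to 0.21. Of all genes tested in the class 0.490% were at least 2-fold lower and 0.198% higher, so 0 of 12 is near that share. Mrps9, a mitochondrial ribosome gene and the nearest at 148057 bp, had 309 UMIs (32.1 CPM) in NCKO and 212 UMIs (29.0 CPM) in F/F. Nck2, an adaptor protein gene, was at 154 and 170 CPM, a ratio of 0.909 (0.842 to 0.981). The 2 other noncoding RNAs measured there were both 2-fold lower. Gm20646, which overlaps Pou3f3, had 119 and 262 UMIs (ratio 0.345, 0.276 to 0.430), and Pantr2, 3885 bp from Pou3f3, had 100 and 207 UMIs (ratio 0.367, 0.286 to 0.468). These 2 were named after their values had been seen. Over all kept nuclei, 0 of 18 genes other than members within 1.5 Mb of Pou3f3 were 2-fold lower, with a lowest log2 ratio of -0.84. In upper-layer-like nuclei, 7 coding genes around Pou3f2 had log2 ratios from -0.34 to 0.25, and 3 around Pou3f4 had log2 ratios from -0.24 to -0.17.

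**Figure D4:**
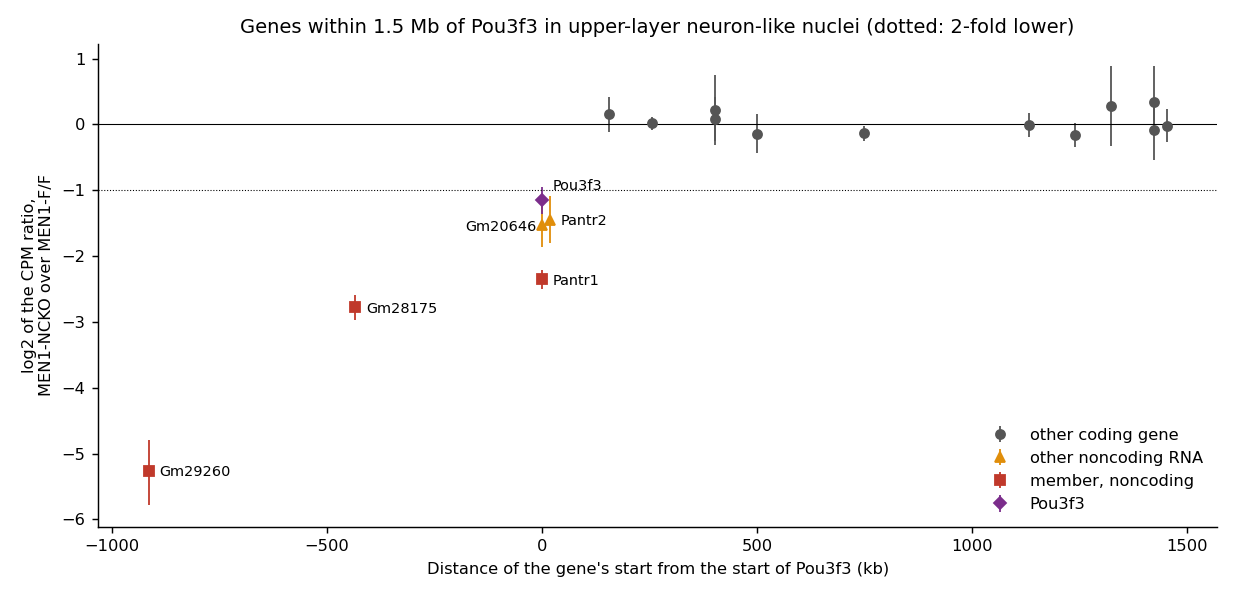
log2 of the CPM ratio, MEN1-NCKO over MEN1-F/F, of genes with at least 50 UMIs in upper-layer neuron-like nuclei against the distance of their start from that of Pou3f3 (kb, along the plus strand); bars are exact binomial 95% intervals and the dotted line marks 2-fold lower. Coding genes lie near 0, and Gm29260, Gm28175, Pantr1, Gm20646, Pantr2 and Pou3f3 lie below -1.

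Each noncoding RNA was next compared with its neighbour nucleus by nucleus. Of NCKO nuclei with a Pou3f3 UMI, 40.8% also had Pantr1, against 22.3% of the rest, and in F/F the shares were 62.7% and 42.8%. Such shares also vary with depth and cell type, so the number of nuclei with both was set against the number expected within each cluster and each of 5 depth bins. Pou3f3 and Pantr1 were together in 645 nuclei of NCKO, where 546 were expected (1.18, 1.09 to 1.28), and in 986 of F/F, where 891 were expected (1.11, 1.04 to 1.18). Pou3f3 and Gm28175 gave 1.26 (1.13 to 1.40) in NCKO and 1.15 (1.07 to 1.24) in F/F, and Pou3f3 and Gm29260 1.09 (0.963 to 1.24) and 1.12 (1.03 to 1.20). For Pou3f4 and Gm44593 the values were 1.59 (1.17 to 2.11), from 48 nuclei with both, and 1.08 (0.741 to 1.51), from 33.

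Set against the expected number, pairs from different loci had a lower median than pairs from the same locus in NCKO and a higher one in F/F. Over the 20 such pairs with at least 20 expected nuclei, the median was 1.14 in NCKO, with a range from 1 to 1.37, and 1.15 in F/F, from 1.06 to 1.29. The 7 pairs within the Pou3f3 region or within the Pou3f4 region had medians of 1.21 (1.09 to 1.59) and 1.12 (1.08 to 1.19). Pou3f2 and Pantr1, on different chromosomes, gave 1.17 (1.08 to 1.26) and 1.10 (1.04 to 1.17), beside 1.18 and 1.11 for the neighbours Pou3f3 and Pantr1. The highest value with more than 100 shared nuclei was that of Pantr1 and Gm28175, with 558 nuclei of NCKO and 1372 of F/F (1.36, 1.25 to 1.48, and 1.19, 1.12 to 1.25). In upper-layer-like nuclei this pair gave 1.71 (1.36 to 2.12) and 1.19 (1.09 to 1.30). Nuclei of 1 library are not replicates, and no test was made.

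**Figure D5:**
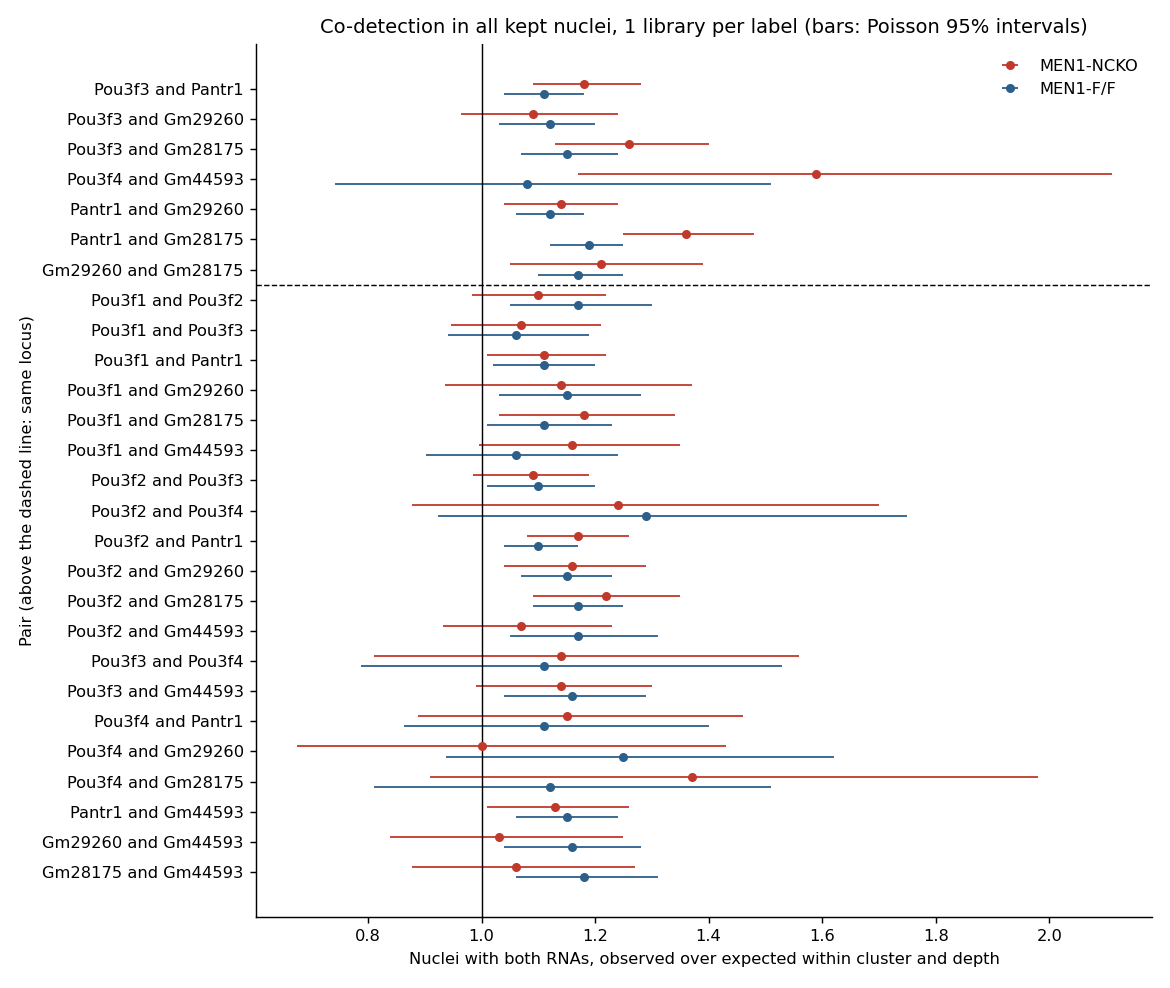
Nuclei with both RNAs over the number expected within cluster and depth, for pairs with at least 20 expected nuclei in each library over all kept nuclei; red MEN1-NCKO above blue MEN1-F/F, bars are Poisson 95% intervals. Pairs from 1 locus (above the dashed line) span 1.08 to 1.59 and the others 1 to 1.37.

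Over the 12 classes and 2 libraries, taken as 24 points that share libraries and depth, the profile of Pou3f3 in log2(CPM + 5) was most like that of Gm29260 among 7266 genes (Pearson r 0.961). Chd2, a chromatin remodeller, came next (0.949), then Pantr1 (0.944), Mir99ahg (0.939) and Dleu2 (0.936). For Gm29260 the same genes recurred, with Pou2f1, another POU gene, at 0.943. Pantr1 was led by Pou3f3 (0.944) and Gm29260 (0.914). Pou3f2 was most like Laptm4a (0.910) and Pou3f3 (0.900). Pou3f1 was most like Gm2164 (0.809) and had an r of 0.231 with Pou3f3. Gm28175, led by Gm15594 (0.783), had 0.610 with Pou3f3, and Gm44593, led by Mpped2 (0.757), had at most 0.438 with another member. These values describe the shape over classes and carry no test.

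Among genes known from mouse work to be tied to BRN1 and BRN2 in cortex, 10 of 13 had at least 50 UMIs in upper-layer-like nuclei. Their median log2 ratio was -0.34, against 0.01 for all genes, with 7 intervals below 1 and 1 above. Of all genes tested in the class, 17.2% had an interval below 1 and 16.3% one above. The list was chosen with earlier results of these data known, and intervals narrow as UMIs rise. Nothing is therefore read from its counts in any class. The homeobox genes Cux1 (2630 UMIs, 273 CPM in NCKO, and 4319 UMIs, 591 CPM in F/F) and Cux2 (2167 UMIs, 225 CPM, and 3724 UMIs, 509 CPM) were at least 2-fold lower. Both were also markers that named the class. Rorb, a layer 4 gene, had a ratio of 0.708 (0.682 to 0.736), and Cdk5r1, the activator of the kinase CDK5, was higher, at 1.21 (1.06 to 1.38). Dab1, which relays reelin signals, was at 2681 and 2693 CPM, with an interval that included 1 (0.977 to 1.01). In migrating nuclei the list had a median of -0.18, with 4 of 9 intervals below 1 and 3 above, where all genes gave 8.92% and 8.49%. In radial glia-like nuclei 1 of 9 lay below 1 and 1 above, where all genes gave 9.53% and 9.12%.

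The rest of the POU family gave differences in both directions in upper-layer-like nuclei. Of 11 genes 5 had at least 50 UMIs, with a median log2 ratio of 0.18, 2 intervals below 1 and 2 above, and 1 gene at least 2-fold higher. Of all genes tested in the class, 17.2% had an interval below 1, 16.3% one above, and 0.198% were at least 2-fold higher. With 5 genes, nothing is read from these counts. Pou2f1, the widely expressed OCT1, was lower, at 121 and 151 CPM (0.804, 0.740 to 0.874). It had a ratio of 0.552 (0.454 to 0.671) in migrating nuclei. Pou6f1 was at 60.2 and 78.5 CPM (0.767, 0.682 to 0.862), and Pou2f2 at 154 and 135 CPM (1.14, 1.05 to 1.24).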

How the data were processed

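Nuclear RNA of embryonic mouse neocortex was measured with 10x Genomics 3′ chemistry and sequenced by Illumina NovaSeq, per the labels' protocols. The authors deposited raw UMI counts, whole numbers with no normalization. Per the file headers they come from Cell Ranger 6.1.0, and the submitters' processing notes name mm10 and Seurat without a role. Of 33938 genes, 32241 were found in GENCODE vM21. Promoter sequences are from RefSeq (GRCm38.p6), which matched 5 of the 8 members. Pou3f1, Pantr1 and Gm44593 have no entry there.

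The deposit holds 10750 NCKO and 6477 F/F barcodes with 50115162 and 30116311 UMIs. Filters dropped 19 and 10 barcodes for fewer than 500 genes, and 0 and 1 for mitochondrial UMIs above 5%. Doublet scores came from simulated doublets, and the top 924 and 336 barcodes were removed, at 0.8% per 1000 barcodes. Both libraries were clustered jointly on 2000 variable genes without the members (30 components, 20 neighbours, Leiden resolution 1, leidenalg 0.10.2, scikit-learn 1.9.0, numpy 2.4.6, scipy 1.17.1, Python 3.11.15). Marker scores named 32 of 44 clusters. Clusters 10 and 39 were left unnamed through pairs of leading genes chosen after those genes were seen. For each class, UMIs were added up by library and divided by their total to give CPM. Levels have exact Poisson and ratios exact binomial 95% intervals. Log2 ratios use CPM + 5 for genes with at least 50 UMIs. Sums and co-detection were tested on simulated data. With 1 library per genotype no test was run.

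The members, markers and lists were chosen with earlier results of these data known. Besides members, the text names list genes, coding genes within 1.5 Mb of a member, and the 5 genes most like a member in profile (at least 500 UMIs in each library). Gm2164, Gm20646 and Pantr2 were added after their values were seen. Some genes of the lists are not reported here by name.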

Additional observations from a re-analysis of the deposited data

Results flagged for a closer look

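Gm29260 was higher in NCKO in radial glia-like cluster 34, with a ratio of 2.40 (1.72 to 3.41), and lower in the other 3 radial glia-like clusters, with ratios from 0.657 to 0.712. Pou3f1 was higher in NCKO in layer 6-like nuclei, with a ratio of 2.12 (1.21 to 3.89), and in MGE-derived interneuron-like nuclei, with a ratio of 1.65 (1.05 to 2.65), but lower in upper-layer-like nuclei (0.719). The direction of the MGE value turned without doublet removal (log2 ratio -0.07) and with all barcodes (-0.10). Of all genes tested, 14.8% had an interval above 1 in layer 6-like and 10.5% in MGE-derived interneuron-like nuclei. These 3 results stand out because 2 populations moved in opposite directions between the same libraries. The differences between populations were not tested, since each rests on 1 library per genotype.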

How the results depend on the processing

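Of 941 recomputed log2 ratios (12 alternatives), 844 stayed within the counting interval of the reported value, 92 left it with the same direction or for a ratio whose interval included 1, and 5 changed sign. The sign changes were Pou3f1 in MGE-derived interneuron-like nuclei without doublet removal (-0.07) and with all deposited barcodes (-0.10), and, at 1000 UMIs per nucleus, Pou3f3 in layer 5-like (0.08) and striatal or LGE-derived nuclei (0.08) and Gm44593 in oligodendrocyte precursor-like nuclei (0.68). In upper-layer-like nuclei the reported log2 ratios moved as follows. With CPM + 20, Pou3f3 was -0.82, Pantr1 -2.01, Gm28175 -2.17 and Gm29260 -2.82, and with CPM + 1 Gm29260 was -4.94. At 1000 UMIs per nucleus Pou3f2 was -0.73, Pou3f3 -1.32 and Gm28175 -2.79. At resolution 2 Pou3f2 was -1.10 and Gm28175 -2.40, and at resolution 0.5 Pou3f2 was -1.10. With all barcodes Gm29260 was -3.60, with clusters weighted as in F/F Pantr1 was -1.98, and with the members among the clustered genes Gm28175 was -2.36. Gm44593 in migrating nuclei was -2.37 at resolution 2 and -2.26 with the members clustered on. Pairs at least 2-fold lower numbered 26 without the UMI minimum, against 25. Co-detection of Pantr1 with Pou3f3 in upper-layer-like nuclei (1.37 in NCKO, 1.07 in F/F) was 1.83 in NCKO when 2 Pantr1 UMIs were required and 1.29 in F/F at 1000 UMIs. The cause of these shifts was not tested. Of 416 recomputed shares of nuclei 322 left their interval, since a share grows with depth. No paired analysis was possible because each genotype has 1 library. Depth limits Pou3f4, which had 50 UMIs in 1 class only.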
